A study of Mus musculus with 24 samples.

Results

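In cultured mouse cerebellar granule neurons (CGNs), 448 protein-coding promoters carried an H3K27me3 peak in all 3 libraries treated with the EZH2 inhibitor GSK-126 and in all 3 libraries of its DMSO vehicle. A promoter was the window from 3 kb before to 3 kb after a gene's 5′ end, and the 285 promoters with a peak in every one of the 24 libraries of the study were set aside. The 448 promoters were 2.04% of the 21938 examined and 23.7% of the 1893 with a peak in all 3 DMSO libraries. Of those 1893, 390 had a peak in none of the 3 GSK-126 libraries, 381 in 1 and 389 in 2. With the 285 promoters set aside added back, 733 promoters kept a peak in all 6 libraries, which was 38.7% of those marked in DMSO. Some genes share a promoter region, so the 448 promoters lay in 424 separate loci, of which 23 held 2 or 3 of them.

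H3K27me3 is the trimethylated form of lysine 27 of histone H3, written by Polycomb repressive complex PRC2, whose catalytic subunit is EZH2 or its paralog EZH1. The mark is known for keeping developmental regulators and genes of other lineages silent, and it typically spreads over CpG-rich sequence just downstream of the promoters of silent genes. GSK-126 is a small molecule that competes with the methyl donor of EZH2 and so blocks new methylation by it.

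The mark was profiled by CUT&RUN, where marked chromatin is released by a nuclease that an antibody tethers to it, in 24 libraries forming 8 groups of 3 replicates. The CGNs came from cerebella of CD1-IGS mice dissected at P6-P8, with pooled litters behind each replicate, and the labels give 1 µM cytosine arabinoside (AraC), which stops cell division, at DIV2 (day in vitro 2). The DIV1 libraries were harvested before that day, so AraC and time in culture cannot be told apart between DIV1 and later days. One set of 6 libraries received 5 µM GSK-126 or DMSO from DIV1 and was harvested at DIV5, and another set of 6 received 1 µM GSK-J4, which blocks H3K27 demethylases of the KDM6 family, or DMSO on the same days. The other 12 libraries formed an untreated time course at DIV1, DIV3, DIV5 and DIV7. The label was checked against marker promoters, since active genes of the labelled cell should lack the mark. A peak was present in each of the 3 DMSO libraries at 1 of 24 granule neuron marker promoters (4.17%). The counts were 5 of 29 for glial, microglial and vascular markers (17.2%) and 6 of 21 for Purkinje cell and interneuron markers (28.6%). Over all promoters the share was 8.63%, so with this few markers the check of the label is weak. None of these marker promoters was among the 448, which were 2.04% of all promoters. Cldn5 of the glial, microglial and vascular list was set aside, as it was marked in all 24 libraries. These are bulk profiles, so fewer cells carrying the mark and less of the mark per cell cannot be told apart.

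The peak lists differed in length. The 3 DMSO lists covered 3.29, 4.23 and 3.55 Mb and the 3 GSK-126 lists 2.00, 1.07 and 1.63 Mb. GSK-126 replicate 3 had peaks in 3285 promoters although its list was shorter than that of replicate 1, which had peaks in 2034. Without GSK-126 replicate 3 the same rule gave 560 promoters, and without GSK-126 replicate 2, the shortest list, it gave 621. Read depth is unknown, and its part in the differences between lists was not tested. A promoter without a peak is one below the caller's threshold and was not shown to lack the mark.

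The stretches shared by all 6 libraries are shown first, since they are what stayed under a peak with the inhibitor. The 2 below were among the longest, and the central 200 bases of each are printed from the plus strand of GRCm38 (mm10) with every CpG in capitals. At Ptger3, the prostaglandin E2 receptor EP3, the shared stretch of 1076 bp ran from 180 to 1255 bp downstream of the 5′ end, and chr3:157567510-157567709 of it held 20 CpGs. At Slc27a2, which imports and activates long-chain fatty acids, the 864 bp ran from 233 to 1096 bp downstream, with 26 CpGs in chr2:126552972-126553171.
Ptger3: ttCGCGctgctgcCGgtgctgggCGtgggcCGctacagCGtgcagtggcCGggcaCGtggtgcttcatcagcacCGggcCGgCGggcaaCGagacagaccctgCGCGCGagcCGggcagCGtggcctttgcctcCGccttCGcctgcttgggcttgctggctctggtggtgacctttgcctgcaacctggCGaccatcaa
Slc27a2: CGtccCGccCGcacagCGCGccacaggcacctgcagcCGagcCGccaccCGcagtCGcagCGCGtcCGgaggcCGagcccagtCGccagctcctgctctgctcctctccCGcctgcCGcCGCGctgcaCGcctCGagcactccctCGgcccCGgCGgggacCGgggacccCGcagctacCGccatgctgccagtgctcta

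A second pair of sequences shows the bases shared by the 6 libraries at 2 of the promoters with the highest fold enrichment. These shared stretches were short and are only a part of what lay under the peaks. At Asmt the peaks covered a mean of 584 ± 172 bp of the window with GSK-126 (SD, n = 3). At Kpna1, an importin alpha, the 44 bases shared by the 6 libraries were chr16:35981707-35981750, at the downstream edge of the window and 2957 to 3000 bp from the 5′ end. In each of the 6 libraries the peak ran past this edge, so the 44 bases are only the part inside the window. At Asmt, the last enzyme of melatonin synthesis, the shared bases were the 80 bases chrX:170673304-170673383, all soft-masked as repeats in the genome sequence.
Kpna1: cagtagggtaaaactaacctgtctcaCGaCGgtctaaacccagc
Asmt: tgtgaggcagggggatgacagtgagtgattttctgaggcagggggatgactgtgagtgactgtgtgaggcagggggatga

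The Asmt stretch was a tandem repeat. The 2 sequences differ from the first pair in their CpGs, with none at Asmt and 2 at Kpna1.

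In base composition the 448 windows were like other marked promoters. In the 1001 bp around the 5′ end their median GC content was 59.2% and their median ratio of observed to expected CpGs 0.611, against 59.2% and 0.638 at the 390 promoters with no GSK-126 peak and 54.7% and 0.552 over all promoters. By a rule of at least 50% GC and a CpG ratio of at least 0.6, 51.1% of the 448 were CpG-rich, against 57.7% of the 390 and 44.4% of all promoters. The genes behind the 448 promoters had a median length of 22.4 kb (interquartile range 8.26 to 60.9) and those behind the 390 a median of 41.3 kb (12.2 to 118). These are descriptions of sets whose members were chosen from the peaks, with no test.

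The remaining peaks lay where the DMSO peaks lay. Averaged over the 3 DMSO libraries, the position most often under a peak was 350 bp downstream of the 5′ end, where 45.8% of the 448 promoters were covered, and with GSK-126 it was the same position at 33.0%. From 0 to 1 kb downstream a mean of 38.1% ± 0.911 (SD, n = 3) of the promoters were covered in DMSO and 26.1% ± 5.30 with GSK-126. From 0 to 1 kb upstream the values were 13.3% ± 0.782 and 7.95% ± 1.71. At 94.2% of the 448 promoters the peaks of every GSK-126 library overlapped a DMSO peak, and a median of 88.9% of the bases under GSK-126 peaks lay under a DMSO peak. At no promoter did all GSK-126 peaks lie outside the DMSO peaks. A base under a peak in all 6 libraries existed at 45.3% of the 448 promoters, over 1 to 1076 bp. The 285 promoters marked in all 24 libraries held one at 78.9%.

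**Figure D1:**
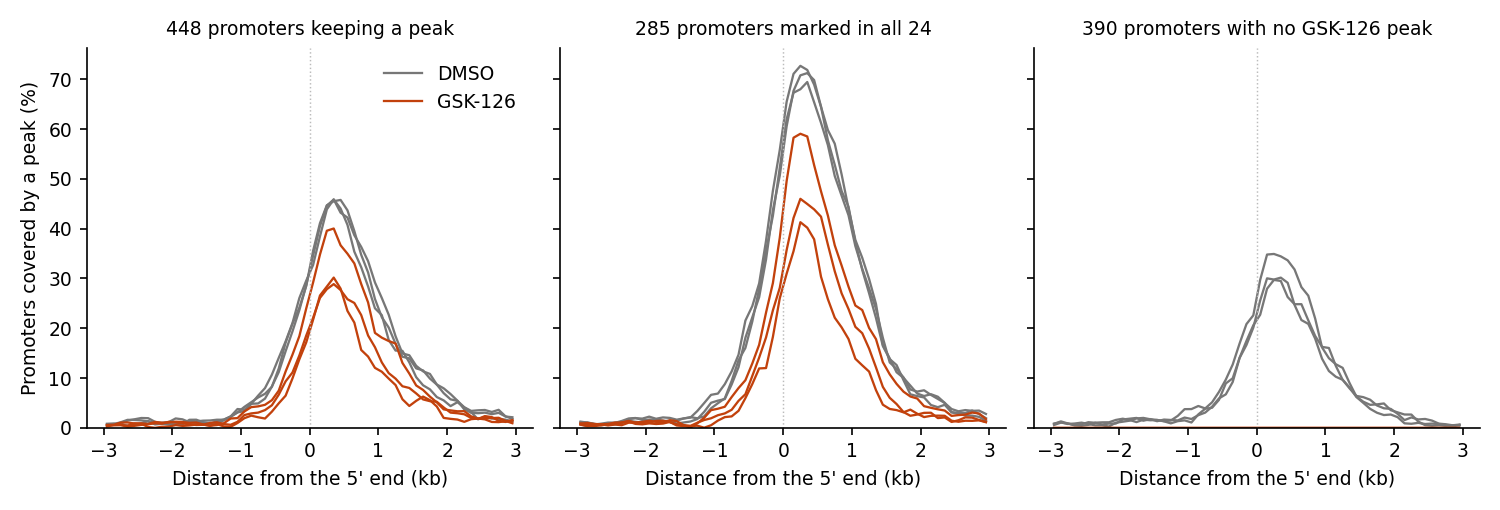
Share of promoters (y axis, %) under an H3K27me3 peak at each distance from the 5′ end (x axis, kb), with 1 line for each of the 3 DMSO (grey) and 3 GSK-126 (orange) libraries. The 448 promoters keeping a peak reach a mean of 45.8% in DMSO and 33.0% with GSK-126 at the same position, below the 285 promoters marked in all 24 libraries, while the 390 promoters of the right panel have no GSK-126 peak by definition.

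What remained with GSK-126 was shorter. The covered length, the number of bases of the window under peaks, had a median over the 448 promoters of 627, 675 and 702 bp in DMSO replicates 1, 2 and 3 and of 507, 316 and 350 bp in the GSK-126 replicates. All 3 GSK-126 medians lay below all 3 DMSO medians. The median ratio of GSK-126 over DMSO was 0.647 (interquartile range 0.46 to 0.912), and the ratio was below 1 at 368 promoters and above 1 at 80. The longest single peak behaved in the same way, with medians of 464, 510 and 507 bp in DMSO and 423, 265 and 290 bp with GSK-126 and a median ratio of 0.696. At 124 of the 448 promoters every GSK-126 library had less coverage than every DMSO library, and at 7 every one had more. Over the 2385 promoters of this experiment with enough coverage to be compared, 46% were lower and 0.797% higher in this sense. The rule that chose the 448 used these libraries, so nothing is read from either count.

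The strength of the remaining peaks did not fall. Fold enrichment, the ratio of signal in a peak to the caller's local background, had medians over the strongest peak of each window of 3.21, 3.18 and 3.38 in DMSO and 3.32, 3.72 and 3.72 with GSK-126. GSK-126 replicate 1 overlapped the DMSO range and the other 2 replicates lay above it. The median ratio was 1.09 (interquartile range 1.04 to 1.14), above 1 at 408 of the 448. The GSK-126 and DMSO values did not overlap at 142 promoters in the higher and at 4 in the lower direction, where the shares over all 733 promoters with a peak in the 6 libraries were 29.7% and 0.682%. At 334 promoters the covered length was lower and the fold enrichment higher, and at 34 both were lower. A peak in a library with a shorter list has to be strong enough to be called there, and the part of this in the ratio was not tested. Fold enrichment and length were not shown to be separate properties. With GSK-126 the 20 promoters of highest mean fold enrichment had a median covered length of 230 bp, against 413 bp over the 448. The 20 widest had a median fold enrichment of 3.48, against 3.58 over the 448. The part of peak length in the ratio was not tested.

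**Figure D2:**
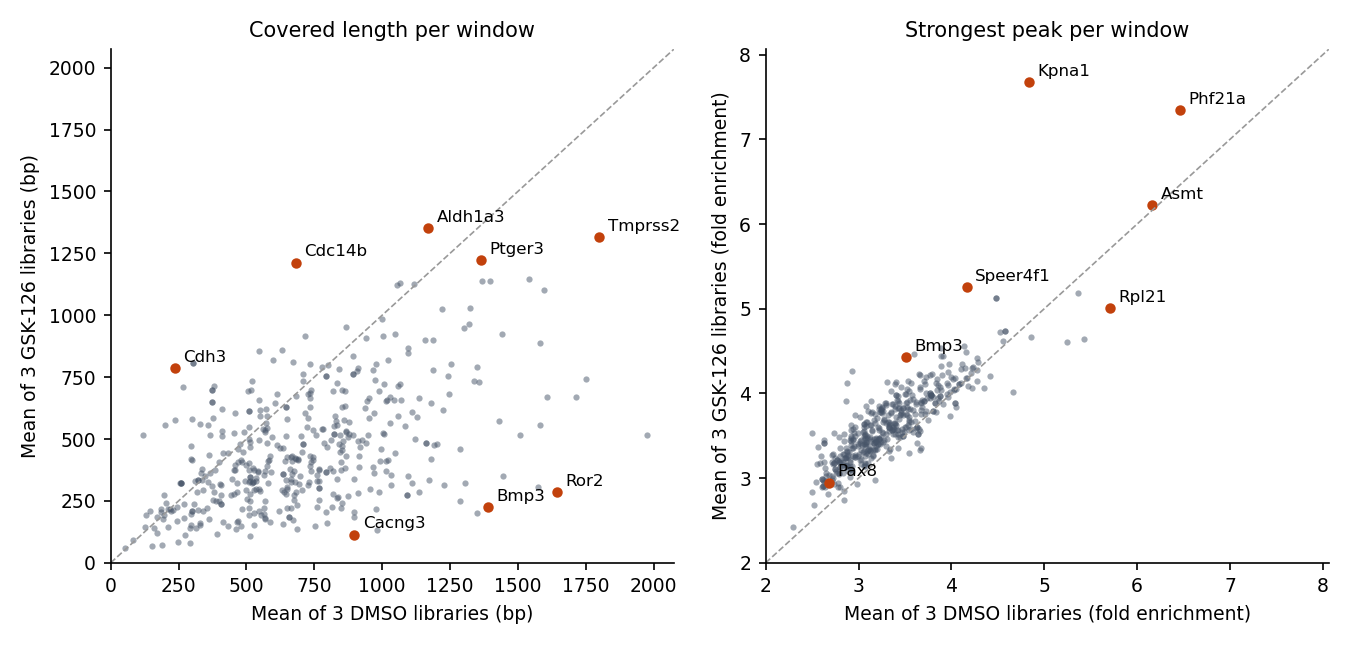
Mean of 3 GSK-126 libraries (y axis) against mean of 3 DMSO libraries (x axis) for each of the 448 promoters, as covered length in bp (left) and as fold enrichment of the strongest peak (right, axes from 2). The dashed line marks equal values; 368 of the promoters have a covered-length ratio below 1 and 408 a fold-enrichment ratio above 1, and named promoters are in orange.

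The 8 promoters with the largest mean covered length with GSK-126 were Aldh1a3, Tmprss2, Ptger3, Cdc14b, Slc6a2, Col26a1, Slc27a2 and Pkp1. Aldh1a3, which makes retinoic acid, was covered over 837, 1223 and 1448 bp in the DMSO libraries and 1750, 794 and 1515 bp with GSK-126, so the groups overlapped (ratio 1.16). Ptger3 was covered over 1207, 1311 and 1575 bp in DMSO and 1202, 1128 and 1337 bp with GSK-126, again with overlap. Its fold enrichment was 3.13 ± 0.08 in DMSO and 3.77 ± 0.249 with GSK-126 (SD, n = 3), and every GSK-126 value exceeded every DMSO value. The noradrenaline transporter gene Slc6a2 held 1305, 1248 and 2070 bp in DMSO and 1127, 790 and 1527 bp with GSK-126. The protease gene Tmprss2 held 1848, 1546 and 2008 bp and then 1969, 516 and 1464 bp, where GSK-126 replicate 2 stood far below the other 5 libraries. The collagen gene Col26a1 kept a mean of 1140 ± 262 bp from 1370 ± 244 bp, and Slc27a2 1138 ± 312 bp from 1396 ± 304 bp. Pkp1, a plakophilin of desmosomes, was nearly level at 1066 ± 31.6 bp in DMSO and 1132 ± 134 bp with GSK-126. The phosphatase gene Cdc14b went from 752, 752 and 544 bp in DMSO to 1156, 1201 and 1281 bp with GSK-126, with no overlap between the groups. Of these 8 promoters, Cdc14b was marked in 18 of the 24 libraries, Pkp1 in 22 and the other 6 in 23.

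At the other end were promoters with far less coverage with GSK-126 than in DMSO. The 6 smallest ratios of covered length were at Cacng3, Sulf1, Sertm1, Bmp3, Ror2 and Adm. In each all 3 GSK-126 values lay below all 3 DMSO values, which choosing by the ratio favours. A stretch under a peak in all 6 libraries existed at Sertm1 (52 bp). Cacng3, Sulf1, Bmp3, Ror2 and Adm had none, so no single stretch was shown to stay marked there. Cacng3, an auxiliary subunit of AMPA receptors, held 865, 1034 and 794 bp in DMSO and 75, 218 and 49 bp with GSK-126 (ratio 0.127). Sulf1, which edits heparan sulfate outside the cell, held a mean of 980 ± 242 bp and then 132 ± 32.7 bp (SD, n = 3). Sertm1 held 1284, 1451 and 1314 bp and then 336, 157 and 111 bp. Bmp3, a ligand of the BMP family, held 1426, 1493 and 1252 bp and then 226, 251 and 198 bp, while its fold enrichment went from 3.52 ± 0.084 to 4.43 ± 0.446 (SD, n = 3). Ror2, a receptor tyrosine kinase for WNT5A, held 1911, 1684 and 1337 bp and then 279, 148 and 434 bp. Adm, the vasodilator peptide adrenomedullin, held 1496, 1355 and 1011 bp and then 506, 135 and 109 bp. These 6 promoters were marked in 20 to 23 of the 24 libraries.

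A few promoters were covered more widely with the inhibitor. The ratio was 3.31 at Cdh3, the gene of P-cadherin, which held 197, 81 and 435 bp in DMSO and 722, 588 and 1051 bp with GSK-126. At Sowaha it was 2.65, from 423, 423 and 66 bp to 891, 697 and 831 bp. At Tesc, a calcium-binding protein, it was 2.67, from 426, 111 and 262 bp to 916, 766 and 447 bp. The groups did not overlap at these 3 promoters. They did overlap at Aldh1a2, a second enzyme of retinoic acid synthesis (ratio 2.80), at Card10, a scaffold of NF-kappaB signalling (2.43), and at AW822073 (4.28), where GSK-126 replicate 2 alone held 1048 bp.

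**Figure D3:**
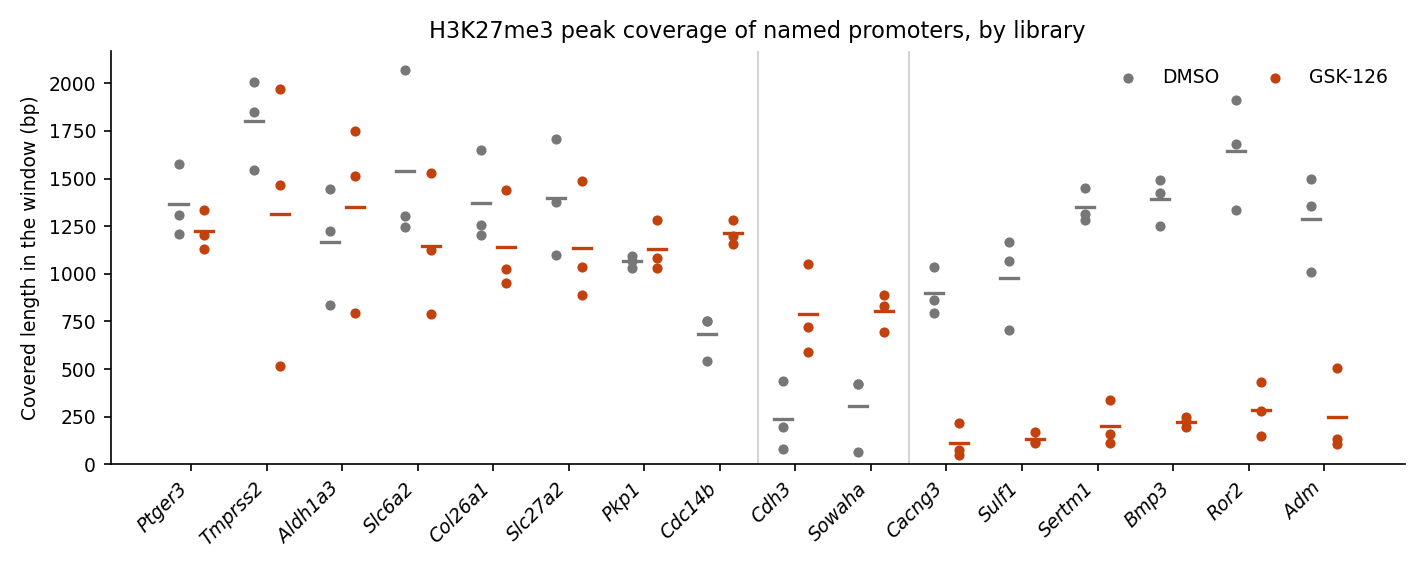
Covered length in the promoter window (y axis, bp) for the 8 widest promoters with GSK-126 (left), 2 with large ratios (middle) and the 6 with the smallest ratios (right). Points are the 3 DMSO (grey) and 3 GSK-126 (orange) libraries and lines are their means; the 6 promoters on the right keep means of at most 287 bp where DMSO libraries had 898 to 1644 bp.

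The 20 promoters with the highest mean fold enrichment had a median covered length of 230 bp with GSK-126, against 413 bp over the 448. At Kpna1 the fold enrichment was 4.91, 4.99 and 4.61 in DMSO and 6.68, 9.45 and 6.91 with GSK-126, with no overlap. Its peaks covered a mean of 92.7 ± 40.1 bp of the window with GSK-126. At Phf21a, a subunit of the LSD1 histone demethylase complex, it was 5.83, 7.02 and 6.55 in DMSO and 5.78, 10.6 and 5.69 with GSK-126, so that replicate 2 alone was high. At Asmt the means were 6.16 ± 0.672 and 6.22 ± 0.801. Its covered length with GSK-126 was 584 ± 172 bp, above the median of the 448. The others of the 8 strongest were Speer4f1, Rnf151 and Rps2, which share their strongest peak, Rpl21 and Nup62cl. Speer4f1 was marked in 7 of the 24 libraries and Rpl21 in 15. The genome holds near-identical copies of Speer4f1 and of ribosomal protein genes, so their peaks are uncertain in placement. Soft-masked repeats made up 100% of the bases under the GSK-126 peaks at Phf21a, 85.3% at Asmt and 60.3% at Rpl21, against a median of 3.54% over the 448. Of the 20 promoters with the highest mean fold enrichment 4 had at least 50% of these bases masked, and of the other 428 promoters 1 did. The 20 widest had none, with a median fold enrichment of 3.48 and a median of 23 libraries marked.

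Most of the 448 rested on at least 1 weak peak. The weakest library of a promoter had a median −log10 q of 1.30, where 1 was the lowest value in the lists. At 35 promoters it was at least 1.5 and at 5 at least 2. Those 5 were Kpna1, Phf21a, Asmt and the pair Nup62cl and Pih1h3b, which share a region. The 4 just inside were Glp1r, the receptor of the incretin GLP-1, at 1.01, and Nkx2-4, Sulf1 and Rbm20 at 1.03. Just outside were Irf5, Dkk3, Nid2 and Ptprm, which had a peak in 5 of the 6 libraries and covered means over the 6 of 1175, 1024, 1001 and 975 bp. All 4 lacked a peak in GSK-126 replicate 2. Of the 442 promoters with a peak in 5 of the 6 libraries, 224 lacked it in GSK-126 replicate 2 and 135 in replicate 3.

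By function, 95 of the 448 promoters (21.2%) belonged to at least 1 of 21 gene lists, against 18.5% of the 1893 marked in DMSO, from which they came, and 12.6% of all promoters. Signalling systems were present at ligand and at receptor level. Of 55 genes of WNT ligands, receptors and antagonists 22 were marked in all 3 DMSO libraries, 8 of them were among the 448 and 1 had no GSK-126 peak. Over all promoters 23.7% of those marked in DMSO were among the 448 and 20.6% had no GSK-126 peak. Promoters marked in all 24 libraries also kept their peaks but are outside the 448, and 4 of the 22 WNT promoters were such. Of the 8 WNT promoters among the 448, the ligands were Wnt2, Wnt2b and Wnt4. The receptors were Lgr6 and Ror2, and the antagonists Dkk1, Sfrp5 and Wif1. Dkk1, a secreted inhibitor of LRP co-receptors, held 913, 986 and 1171 bp in DMSO and 717, 654 and 1085 bp with GSK-126. Sfrp5 held 642, 1412 and 965 bp and then 988, 431 and 754 bp, with overlap in both genes.

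The BMP and TGF-beta list had 8 of 25 marked promoters among the 448, and 4 with no GSK-126 peak. They were the ligands Bmp2, Bmp3, Bmp8a, Bmp8b, Lefty1 and Nodal, the activin antagonist Fst and the type I receptor Acvrl1. Acvrl1 kept 934, 989 and 1161 bp from 1503, 1275 and 1188 bp, with no overlap. Bmp2 went from 532, 481 and 541 bp to 817, 629 and 647 bp, also with no overlap and in the other direction from Bmp3. Nodal, a ligand of early patterning, had a ratio of 0.647, equal to the median of the 448. The FGF, Hedgehog and Notch list had 2 of 17, Fgfr3 and Dhh, and 4 with no GSK-126 peak.

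Solute carriers move small molecules across membranes. Their list of 371 genes gave 23 of the 448, more than any other list. These were 6.20% of its genes, against 14.5% for the shorter WNT list and 2.04% over all promoters. Genes were matched by symbol and not by function, Slc9a3r1 included. Of 58 solute carrier promoters marked in DMSO the 23 were 39.7%, and 6 had no GSK-126 peak (10.3%). Another 9 were marked in all 24 libraries. Besides Slc6a2 and Slc27a2 the 23 included the glucose transporter gene Slc5a1. It held 801, 1103 and 699 bp in DMSO and 1099, 864 and 889 bp with GSK-126. The dopamine transporter gene Slc6a3 was another. Of 23 potassium channel promoters 7 were among the 448 and 4 had no GSK-126 peak. Kcnj8, a subunit of ATP-sensitive channels, held 925, 1028 and 1056 bp in DMSO and 946, 930 and 875 bp with GSK-126, one of the most even profiles among the named promoters. Of 7 promoters of the calcium and sodium channel list Cacng3 was the 1 among the 448, and 2 of the 7 had no GSK-126 peak. Cacng3 was matched to this list by its symbol, although it is an auxiliary subunit of AMPA receptors.

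Receptors and peptides of neural signalling were also present. Of 40 promoters of acetylcholine, monoamine and peptide receptors 11 were among the 448 (27.5%), 8 were marked in all 24 libraries and 6 had no GSK-126 peak. The 11 included Oxtr, the oxytocin receptor, Htr1a, Drd5 and the beta-1 adrenergic receptor Adrb1. Oxtr kept 899 ± 132 bp from 1157 ± 515 bp (SD, n = 3). Of 21 neuropeptide and hormone promoters 5 were included (23.8%), namely Adm, Cck, Edn1, Sst and Ucn. Another 7 of the 21 were marked in all 24 libraries, and 1 had no GSK-126 peak. Cck held 850, 1191 and 1004 bp in DMSO and 971, 287 and 697 bp with GSK-126. Of 11 glutamate and GABA receptor promoters 3 were included, Gabra5, Grm3 and Grm7, and none of the 11 had 0 GSK-126 peaks. Grm7, a presynaptic glutamate receptor, held 340, 1184 and 991 bp in DMSO and 107, 285 and 401 bp with GSK-126.

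Lineage regulators and structural genes were present as well. Of 31 homeobox and other lineage factor promoters marked in DMSO 10 were among the 448 (32.3%), including Pax8, Bnc1 and Tbr1, and 9 had no GSK-126 peak (29.0%). Pax8, a factor of thyroid and kidney, held 79, 1061 and 651 bp in DMSO and 878, 680 and 903 bp with GSK-126, and was marked in 14 of the 24 libraries. Of 46 matrix promoters 7 were among the 448 (15.2%) and 12 had no GSK-126 peak (26.1%). Col4a1 and Col4a2, the basement membrane collagens, lie head to head and were both included. Of 14 cadherin promoters Cdh3 was the 1 among the 448, and 6 had no GSK-126 peak. Of 12 axon guidance promoters Epha2, Slit2 and Ntn1 were included, and 3 had no GSK-126 peak. Slit2, a repellent ligand, held 1292, 1445 and 785 bp in DMSO and 281, 156 and 564 bp with GSK-126, and the attractant gene Ntn1 had a ratio of 0.227, with no overlap in either. Of 9 keratin and desmosome promoters 4 were included, Dsp, Krt8, Pkp1 and Pkp2, and 1 had no GSK-126 peak. Among promoters marked in all 24 libraries were 4 of the matrix list, 3 potassium channels and 2 lineage factors. They also held 2 of the FGF, Hedgehog and Notch list and 1 each of the BMP and TGF-beta, cadherin and keratin lists. The calcium and sodium channel, glutamate and GABA receptor and axon guidance lists had 0. The list counts have no test, and no list is called particular to the 448.

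None of the 15 example genes used by the study was among the 448, which were 2.04% of all promoters. Of the 15, 4 had a peak in all 3 DMSO libraries, and the rest could not be included whatever the inhibitor did. Grin2c, an NMDA receptor subunit of mature CGNs, had a peak in 3 DMSO and 2 GSK-126 libraries and in 19 of the 24. Jag1 had 3 and 1, and Myc and Atoh1 3 and 0. None of the 1093 olfactory receptor promoters was marked in all 3 DMSO libraries.

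In the 18 libraries outside the GSK-126 experiment, the 448 promoters were marked in a median of 16, with a range of 1 to 17. The rule also used these 18, since a promoter marked in all of them was set aside, which lowers the values of the 448 there. They were marked in at least 15 of the 18 at 287 promoters (64.1%), against 24.9% of the 390 promoters with no GSK-126 peak. A share of 11.4% was marked in 9 or fewer, against 34.6% of the 390. In each of the 18 libraries the share of promoters with a peak was higher among the 448 than among the 390. In all 18 the median fold enrichment of the 448 was the lower of the pair, at 2.91 to 3.65 against 3.60 to 4.18. In 17 of the 18 their median longest peak was the longer, at 200 to 924 bp against 188 to 426 bp. Against the 389 promoters with a peak in 2 of the 3 GSK-126 libraries the 448 were less distinct, with a higher share marked in 10 of the 18, a longer median longest peak in 7 and a lower median fold enrichment in all 18. Against the 285 marked in all 24 they were lower in share, length and enrichment in all 18. With those 285 added back, the 733 promoters, whose choice used the 6 libraries of the GSK-126 experiment alone, had in all 18 libraries a higher share marked, a longer median longest peak and a lower median fold enrichment than both the 390 and the 389. Their median longest peak was 283 to 1044 bp, and that of the 389 was 219 to 787 bp. The libraries share the same promoters, so these counts are a description. The part of peak length in the differences of fold enrichment was not tested.

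**Figure D4:**
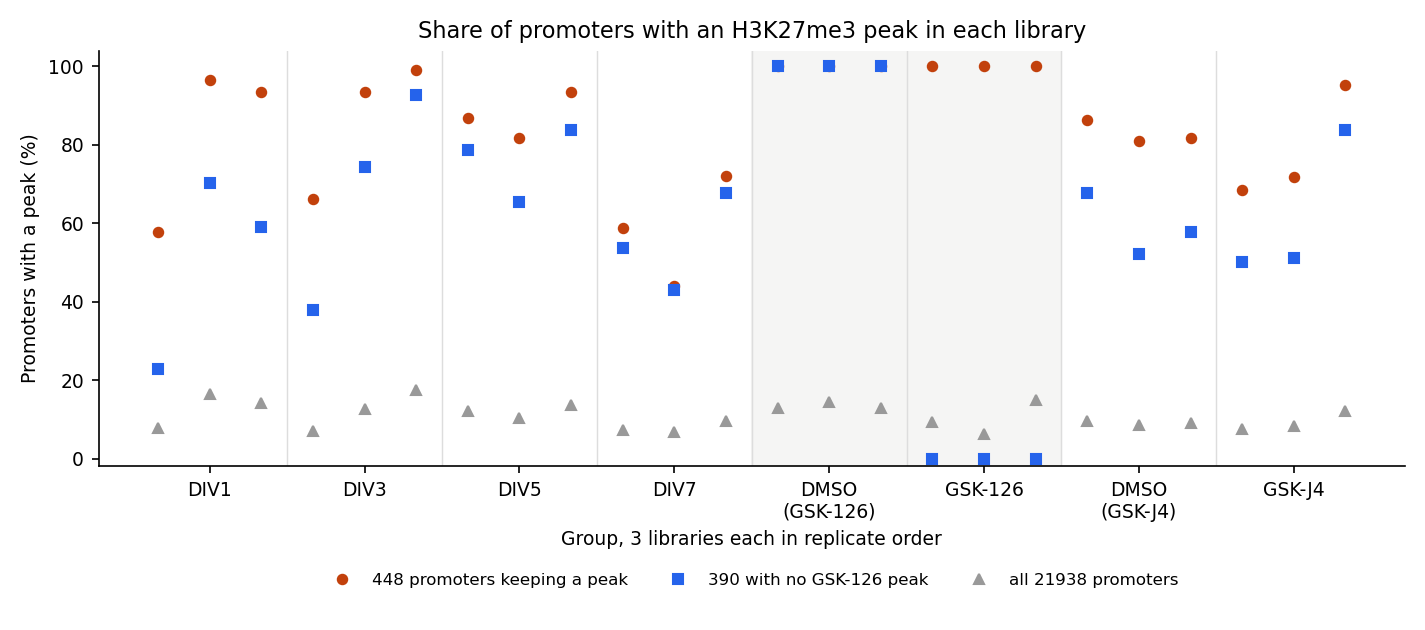
Share of promoters with an H3K27me3 peak (y axis, %) in each of the 24 libraries (x axis, by group), for the 448 promoters keeping a peak with GSK-126, the 390 with no GSK-126 peak and all 21938 promoters. Shaded libraries are those of the GSK-126 experiment, where the sets are at 100% or 0% by choice; in the others the 448 lie at 44.0% to 99.1%, lowered by leaving out promoters marked in all 24, and above the 390 in every library.

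Of 144 promoters that missed a single library of the 24, 56 missed DIV7 replicate 2, 25 DIV1 replicate 1 and 16 DIV3 replicate 1, whose lists were among the shortest. The share of the 448 with a peak was 57.8%, 96.7% and 93.5% at DIV1, 66.1%, 93.5% and 99.1% at DIV3, 86.8%, 81.7% and 93.5% at DIV5 and 58.7%, 44.0% and 72.1% at DIV7. At DIV7 no library was above 72.1%, and DIV1 and DIV3 each had 1 library within the DIV7 range. Over all promoters the share also varied, from 7.71% to 16.4% at DIV1, 7.10% to 17.5% at DIV3, 10.3% to 13.5% at DIV5 and 6.67% to 9.65% at DIV7.

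The other comparisons were fitted with limma, on the percent of each window under peaks after every list of an experiment had been limited to the same summed length, with Benjamini-Hochberg adjustment over all promoters tested. Because promoters marked in all 24 libraries had been set aside, counts over the 448 are a description, and the same counts are given over the 733, which were chosen without these libraries. With GSK-J4 against its own DMSO, 335 of the 448 were tested and none passed an adjusted p of 0.05 in either direction (0% of all 1524 promoters tested, higher or lower). Before adjustment 7 of the 448 were higher and 10 lower at a p under 0.05, against 33 and 40 over all promoters. Of the 733, 620 were tested and none passed, with 18 higher and 22 lower before adjustment. The smallest limma adjusted p among the 448 was 0.975. The median half-width of the 95% interval, which is not adjusted for the number of promoters, was 7.06 percentage points of the window. At equal length the 448 were covered over a mean of 4.97%, 4.58% and 4.75% of the window in the DMSO libraries. Even a loss of all coverage at a typical promoter would thus lie within that half-width, so the absence of lower calls says little. The share of the 448 with a peak was 86.4%, 81.0% and 81.7% in these DMSO libraries and 68.5%, 71.9% and 95.3% with GSK-J4, which overlapped.

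From DIV1 to DIV7, 325 of the 448 were tested, none was higher and 3 were lower, where 0.446% of all 1795 promoters tested were higher and 0.557% lower. Of the 733, 610 were tested, 1 was higher and 4 were lower, the 2 beyond the 448 being Aqp3 and Kcne3. The 3 were Spock1, the extracellular proteoglycan testican-1, and the neighbours Tmem200a and Gm9767, whose windows on chromosome 10 overlap. At equal length Spock1 on chromosome 13 was covered over 12.8%, 25.3% and 21.7% of its window at DIV1 and 15.9%, 15.5% and 14.3% at DIV3. It was then covered over 0%, 5.17% and 0% at DIV5 and 0% in all 3 libraries at DIV7. With all deposited peaks its DIV5 values were 11.4%, 5.17% and 12.3%, and those of the other days were unchanged. The groups DIV1 and DIV7 were far apart, and the fall was −19.9 percentage points (95% interval −26.2 to −13.7, limma adjusted p = 0.00708). At equal length Tmem200a was covered over 8.25%, 18.5% and 17.9% at DIV1 and not covered in the other 9 libraries of the time course. Its difference was −14.9 percentage points (−20.1 to −9.69), with a limma adjusted p of 0.0106 for DIV7 and 0.027 for DIV3 against DIV1. The number lower at DIV7 was 0 when DIV7 replicate 1 or DIV7 replicate 3 was left out, 1 without DIV1 replicate 2 or DIV1 replicate 3, and 5 without DIV1 replicate 1.

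Tmem200a and Gm9767 were also the 2 promoters of the 448, and of the 733, that were lower at DIV3 than at DIV1, and none was higher, against 0.279% lower and 0.0557% higher over all promoters. With all deposited peaks neither was called, and none of the 448 or the 733 was, the smallest adjusted p being 0.636, where 0.195% of all promoters were lower and 0.0279% higher. Tmem200a was then covered over 0%, 1.73% and 20.7% at DIV3, the last above every DIV1 library. None of the 448 was called from DIV3 to DIV5, where 0% of all promoters were called either way, or from DIV5 to DIV7, where 0.279% were higher and 0.0557% lower. Before adjustment, 5 were higher and 8 lower at a p under 0.05 in the first of these steps and 6 and 1 in the second, against 66 and 48 and then 55 and 44 over all promoters. From DIV5 to DIV7 1 of the 733, Aqp3, was lower. In the GSK-126 set, Spock1 had peaks over a mean of 650 ± 245 bp in DMSO and 305 ± 164 bp with GSK-126 (SD, n = 3), with overlap.

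**Figure D5:**
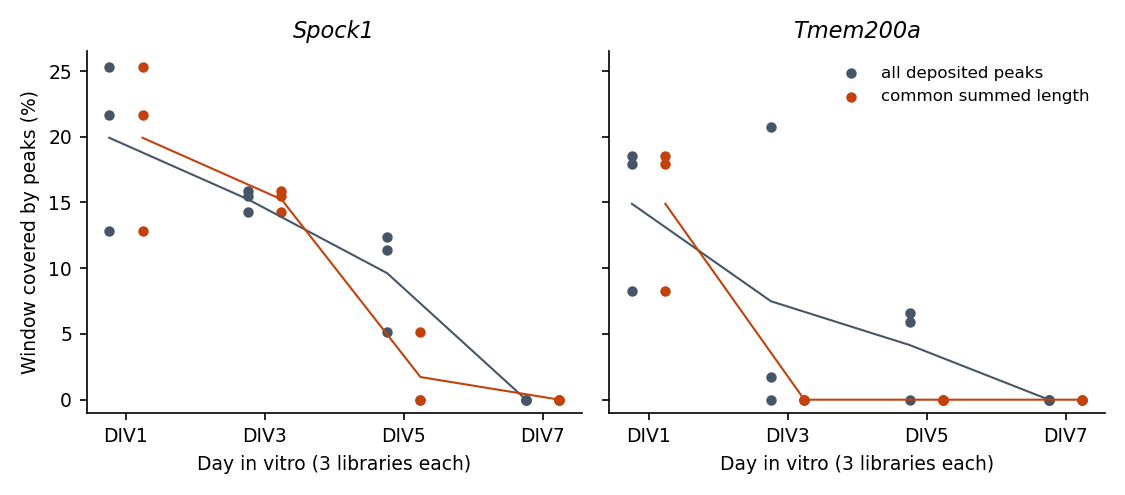
Percent of the promoter window under peaks (y axis) at DIV1, DIV3, DIV5 and DIV7 (x axis) for Spock1 and Tmem200a, with 1 point per library and lines through the means of 3. Orange values use lists limited to a common summed length and grey values all deposited peaks; both promoters reach 0% in all 3 DIV7 libraries.

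With all deposited peaks in place of lists of equal length, 4 of 445 promoters tested were lower at DIV7 than at DIV1, namely Spock1, Tmc5, Ptpru and Prss8, and none was higher. Over all 3585 promoters 1.09% were lower and 0.0279% higher in that fit. The median difference was −9.07 percentage points for the 448 and −3.07 over all promoters, with lists of 1.33, 5.19 and 4.09 Mb at DIV1 and 1.25, 1.19 and 2.25 Mb at DIV7. At equal length the medians were −0.12 and 0.28. That limit left 49.1%, 24.3% and 30.4% of the 448 covered at DIV1 and 52.2%, 42.4% and 38.2% at DIV7. With so many windows empty, a median near 0 cannot show what list length contributed to the fall. The part of list length was not tested.

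For GSK-126 itself the same fit only describes the 448. At equal length 308 of them could be fitted, 17 were higher and 1, Bmp3, lower, where 2.45% of all 939 promoters were higher and 4.37% lower. With all deposited peaks 5 were higher and 65 lower, where 0.21% of 2385 promoters were higher and 26.7% lower. The balance between higher and lower thus turned with the length of the lists, and the rule that chose the 448 used these libraries, so nothing is read from these counts.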

How the data were processed

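H3K27me3 CUT&RUN peaks of 24 CGN libraries were analysed. Per the submitters' processing notes, reads were trimmed with Trimmomatic 0.38, aligned to mm10 with STAR 2.7.2b and called with MACS2 2.1. The authors deposited 1 broad-peak list per library, giving each peak a fold enrichment (a ratio to local background). The deposited lists also hold −log10 p-values and −log10 q-values, with no q value below 1 on that scale. The control used for the calls is not given in the sources used here, and read depth is unknown, so no interval that needs it is given. The study's DESeq2 test on read counts could not be repeated on peak lists.

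Promoters were protein-coding 5′ ends of GENCODE vM21 (GRCm38) with 3 kb on each side, 6001 bp in all. A peak counted from 1 base of overlap. Strength was the highest fold enrichment in a window, and covered length the bases under peaks. Coverage was also computed after each list was limited, by −log10 p, to the shortest summed length of its experiment (1.07 Mb for GSK-126, 1.40 Mb for GSK-J4 and 1.11 Mb for the time course). limma 3.58.1 (R 4.3.3, robust empirical Bayes) was fitted to promoters covered in at least 3 libraries of an experiment, with all its groups and no block, and p-values were adjusted by Benjamini-Hochberg. The fit was also run on simulated coverage in which no window was empty. Many real windows were not covered, so that run does not show how the fit behaves there. Sequences were read with pysam 0.24.0 from the RefSeq copy of GRCm38, in which no peak ended beyond a chromosome. Tables used Python 3.11.15 with pandas 2.3.3.

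The 448 promoters, the gene lists and the tests were chosen with earlier results of these data known. Named promoters were the 8 strongest and 8 widest with GSK-126, the 6 largest and 6 smallest covered-length ratios, up to 3 of each list by covered length, those called by limma, the 4 just inside and 4 just outside the threshold, and the study's example genes, leaving out symbols that start with Gm and a digit or end in Rik. Gm9767 was named because it shares the region of Tmem200a. Other list members, Pih1h3b, Tmc5, Ptpru and Prss8, and the non-members Aqp3 and Kcne3, were named after their values were seen. Same-numbered replicates did not deviate together (correlations of −0.069 to 0.157), so replicate numbers were not taken to pair samples. Some of the named promoters and sequences are not reported here.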

Additional observations from a re-analysis of the deposited data

How the results depend on the processing

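The number of promoters keeping a peak depended on the peak list. It was 448 with all deposited peaks, 13 when peaks had to reach a −log10 q of 2 (5 of them among the 448) and 25 when the 6 lists were limited to a common summed length. Requiring a base covered in all 6 libraries left 45.3% of the 448, and the count was 733 with no exclusion of promoters marked in all 24. Windows of 1 kb on each side gave 349 and an overlap of at least 100 bp gave 392. Leaving out 1 library gave 464 to 621. The median ratio of covered length was 0.647, and 0.55 to 0.714 with 1 library left out, but 1.11 at a −log10 q of 2, where 5 promoters remained. The median ratio of strength was 1.07 to 1.13 with 1 library left out and above 1 under every alternative run.

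For GSK-126 the number of the 448 called was 18 at the common length, 70 with all deposited peaks, 0 at −log10 q of at least 2, 10 with lists ranked by fold enrichment and 0 to 6 with 1 library left out. It was 0 without DMSO replicate 2 or any one of the 3 GSK-126 replicates, 6 without DMSO replicate 1 and 5 without DMSO replicate 3. For DIV7 against DIV1 it was 3, 5 when counted over the 733 (an alternative chosen after seeing the data), 0 at −log10 q of at least 2 and with ranking by fold enrichment, and 0 to 5 with 1 library left out. For GSK-J4 it was 0 under every alternative run, including 0 to 0 with 1 library left out. The cause of these changes was not tested. With the replicate number as a block the calls among the 448 were 0 for GSK-126, 3 for DIV7 against DIV1 and 0 for GSK-J4.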
